A study of Mus musculus with 48 samples.

Results

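The germline and meiosis genes described here are 30 mouse genes whose products act in germ cells. They were found by their symbols as 30 of the 48321 rows of a table of gene expression in mouse embryonic stem cells. The study asked what the histone methyltransferases Mll3 and Mll4 (genes Kmt2c and Kmt2d), which place monomethylation on lysine 4 of histone H3 at enhancers contribute to transcription. It separated the proteins from their catalytic activity. The lines of cells compared were dKO, dCD and WT cells. In dKO cells both Mll3 and Mll4 were knocked out. In dCD cells both proteins were made catalytically deficient. WT cells carry the wild-type genes. All were male R1 embryonic stem cells of strain 129SV, kept with LIF in serum-free 2i medium, whose inhibitors of MEK and GSK3 hold such cells in a naive pluripotent state, and plated on fibronectin before collection. Of 48 samples, the 9 polyadenylated RNA libraries carry these values, 3 per line. The labels do not say whether the 3 libraries of a line came from separate cultures or separate clones, so that effects of a clone and of its genotype cannot be told apart. The p-values below are therefore set against the spread among libraries of a line, and that spread may be purely technical.

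The germline is the lineage that gives rise to eggs and sperm, and its genes are silent or weak in most other cells. Germ cell identity factors set the fate of primordial germ cells, the piRNA pathway uses small RNAs bound to Piwi proteins to silence transposons, and meiosis needs cohesins, an axial core and the synaptonemal complex to hold homologous chromosomes together. Many of these genes have promoters rich in CpG that are closed in somatic cells by DNA methylation, and in embryonic stem cells also by a complex that holds E2f6, Mga, Max and L3mbtl2. Naive mouse embryonic stem cells in 2i medium have little DNA methylation and are known to transcribe a number of germline genes.

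The libraries held between 21090624 and 56249770 reads, recovered from the deposited values as described with the processing. Kmt2c, the gene of Mll3, stood at 8.00, 7.55 and 7.44 TPM in dKO cells, at 28.6, 25.3 and 27.04 TPM in dCD cells and at 21.6, 19.7 and 21.9 TPM in WT cells. Kmt2d, the gene of Mll4, stood at 84.8, 80.5 and 83.5 TPM in dKO cells, at 67.2, 54.6 and 67.8 TPM in dCD cells and at 67.4, 65.2 and 66.6 TPM in WT cells. Kmt2c RNA was thus lower in every library labelled dKO, while Kmt2d RNA was not. The labels used here do not give the edited parts, so that a level over the whole gene does not check the Kmt2d label. TPM is a level per kilobase of gene length, scaled to the same sum in every library, so that levels can be compared between genes. All levels below are in TPM in the order of replicates 1, 2 and 3, and differences are log2 fold changes on the log2(TPM + 1) scale, where a change of a gene near 1 TPM comes out smaller than the ratio of its levels.

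Of the 30 genes, 27 reached 1 TPM in at least 3 libraries and were tested with limma, with Benjamini-Hochberg adjustment over all 16179 genes that passed that filter. Tdrd5, Asz1 and Sycp2 did not reach it. In dKO cells, 11 of the 27 genes were higher than in WT cells and 14 were lower at an adjusted p under 0.05, which is 40.7% and 51.9%, beside 43.4% and 28.4% of all tested genes. Calls of this kind covered 71.8% of all genes in the contrast of dKO with WT, so that passing the test alone sets few genes apart. Changes of at least 2-fold were found for 16 of the 27 genes, 7 higher and 9 lower, or 59.3%, beside 13.9% of all tested genes (6.01% higher and 7.89% lower). The genes were chosen with earlier results of these data known. Larger shares than those of all genes, here and below, may therefore reflect that choice, which was not tested. The median log2 fold change was -0.43 over these genes and 0.10 over all tested genes, and the median size of the change regardless of its sign was 1.19 beside 0.33. The median of -0.43 was -0.10 over all 30 genes without a filter and -0.70 at a minimum of 5 TPM. The libraries of dKO and WT did not overlap for 26 of the 27 genes, which held for 74.4% of all tested genes. Among the 27 genes, Tdrd1, Brdt, Tex101 and Tex13, reached 1 TPM in no WT library, so that they passed the filter only through the other lines, and Smc1b and Brdt reached it in no dKO library. In RNA from whole cultures, more cells expressing a gene and more RNA per cell cannot be told apart.

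In dCD cells, 17 of the 27 genes were higher than in WT cells and 7 were lower, which is 62.96% and 25.9%, beside 28.9% and 29.5% of all tested genes. Calls in either direction covered 58.4% of all genes there. Changes of at least 2-fold were found for 7 genes higher and 1 lower, together 29.6%, beside 6.94% of all tested genes (4.62% higher and 2.32% lower). The number at least 2-fold higher was 12 with a pseudocount of 0.1 and also with voom on the recovered reads, where 6.79% and 7.02% of all tested genes were at least 2-fold higher. The median log2 fold change was 0.56 for these genes and -0.01 for all tested genes, and the median size of the change was 0.66 beside 0.21. The libraries of dCD and WT did not overlap for 25 of the 27 genes, beside 63.5% of all tested genes. Both comparisons use the same 3 WT libraries. Set directly against dCD cells, dKO cells had 8 of the 27 genes higher and 15 lower, or 29.6% and 55.6%, beside 42.3% and 27.04% of all tested genes (69.3% in either direction). At least 2-fold differences between dKO and dCD cells were found for 12 genes, or 44.4%, beside 10.96% of all tested genes. Of these, 3 were higher in dKO cells (3.60% of all genes) and 9 were lower (7.36% of all genes). The libraries of dKO and dCD did not overlap for 23 of the 27 genes, beside 73.1% of all tested genes. After median-ratio scaling, which shifted the median of all genes by -0.10 in both contrasts that hold dKO, the higher share of all calls was 49.9% in place of 60.4% for dKO against WT and 48.9% in place of 61.0% for dKO against dCD. No tested germline gene changed its sign under that scaling.

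**Figure D1:**
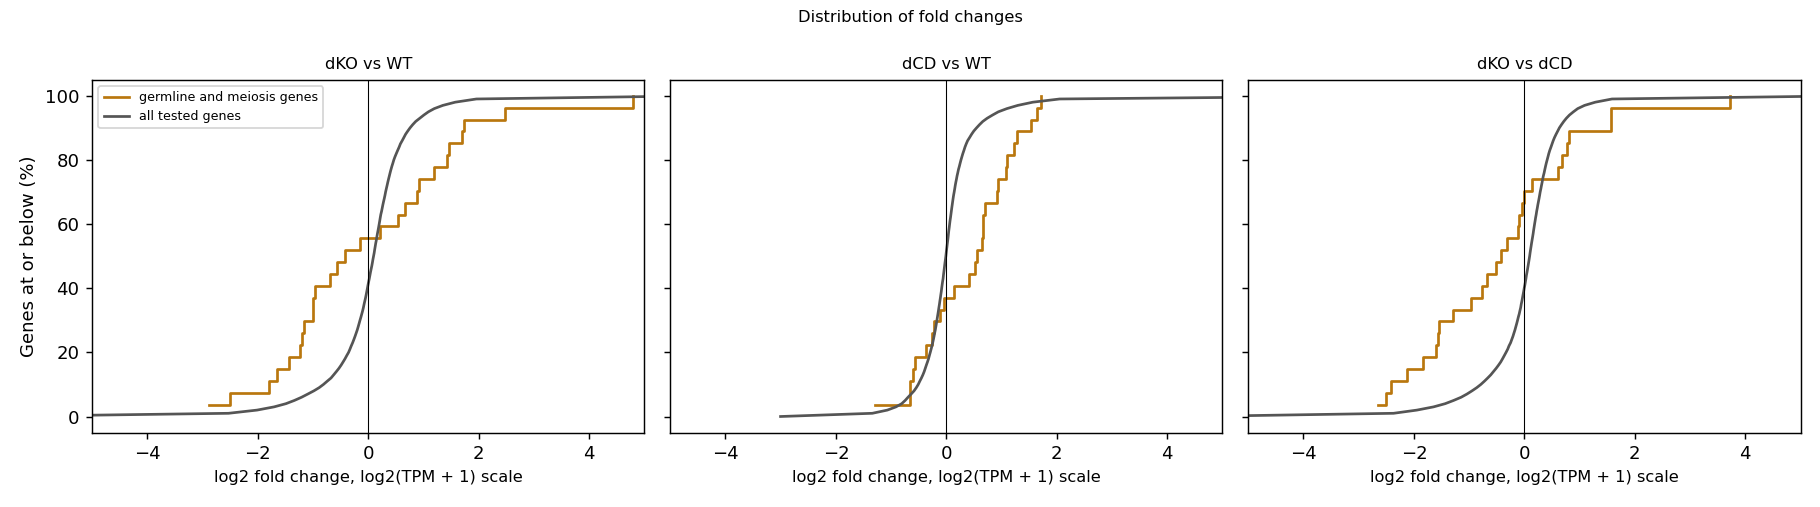
Cumulative share of genes (%) against log2 fold change, as stepped lines for the 27 tested germline and meiosis genes and smooth lines for all 16179 tested genes, for dKO against WT, dCD against WT and dKO against dCD. The medians of the 27 genes are -0.43, 0.56 and -0.42, and those of all genes are 0.10, -0.01 and 0.10.

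The sum of the 30 levels was 323.8 to 326.0 TPM in dKO cells, 962.3 to 975.9 TPM in dCD cells and 555.2 to 585.7 TPM in WT cells. Rpl10l and Tuba3a alone made up 37.0% to 39.5% of that sum in dKO cells, 74.4% to 76.0% in dCD cells and 60.7% to 64.1% in WT cells. Without that pair, the sums lay much closer together, at 196.6 to 205.4 TPM in dKO cells, 231.8 to 246.2 TPM in dCD cells and 204.6 to 230.3 TPM in WT cells. For 22 of the 30 genes the libraries of each line lay wholly apart from those of both other lines. Among the 27 tested genes this held for 21, or 77.8%, beside 42.4% of all tested genes. The orders of the 22 differed: 8 genes were highest in dKO and lowest in WT cells, 6 were highest in dCD and lowest in dKO cells, and 5 were highest in WT and lowest in dKO cells. Mov10l1 and Taf7l were highest in dCD and lowest in WT cells, and Nanos3 was highest in dKO and lowest in dCD cells.

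**Figure D2:**
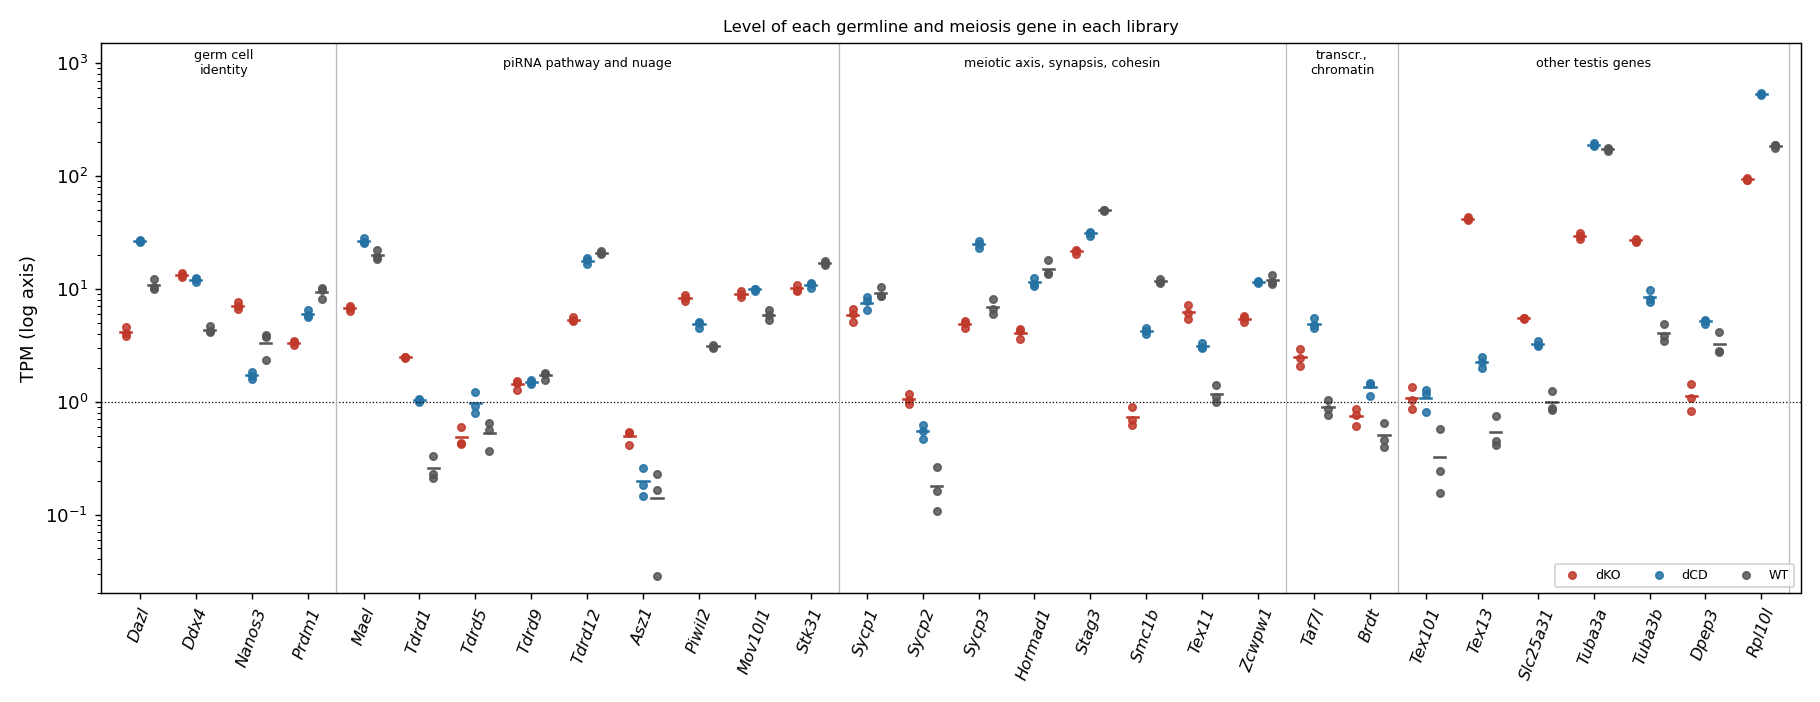
Level of each of the 30 germline and meiosis genes in each of the 9 libraries, grouped by role, on a log axis in TPM, with a point per dKO, dCD and WT library, a short bar at the mean of a line and a dotted line at 1 TPM. Tex13 stands at 40.6 to 43.1 TPM in dKO cells and below 1 TPM in WT cells, while Smc1b is below 1 TPM in dKO cells and at 11.3 to 12.2 TPM in WT cells.

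Promoters are shown to set the sequence before the start sites beside the levels. RefSeq promoter sequences on GRCm38.p6 were at hand for 28 of the 30 genes, and Piwil2 and Tex11 had no entry. In the 250 bases before the start site, the observed over expected CpG ratio had a median of 0.729 for these 28 genes and 0.403 for all 27025 genes with an entry. It was at least 0.6 for 75% of the 28 and 36.47% of all. For a gene with several start sites, the highest ratio among its windows was taken, and a motif in any of them counted. The E-box CACGTG reads the same on both strands and is bound by Max with its partners. It was present for 13 of the 28 genes, or 46.43%, beside 6.86% of all genes. Among genes with a CpG ratio of at least 0.6, CACGTG was present in 12 of 21 of the germline genes, or 57.14%, beside 10.85% of 9855 genes. The letters GCGGGA, part of E2F sites, were searched on both strands and can overlap the E-box by 1 base at most. They occurred for 9 of the 28 genes, or 32.14%, beside 18.81% of all genes and 39.95% of genes with that CpG ratio. A match of letters is no evidence that a factor was bound, and its absence says nothing of the factor. Below are 7 windows, 5′ to 3′ on the strand of the gene, with the E-box, the E2F letters and their reverse complement (TCCCGC) in capitals. Ddx4 and Slc25a31 were higher in dKO and in dCD cells, Mael, Sycp3 and Hormad1 were lower in dKO cells, Smc1b had the largest decrease in dKO cells, and Tex13 (Tex13b in RefSeq) had the largest increase there and holds neither motif. They lie at chr13:112652311-112652560 (minus strand, Ddx4), chr3:40708621-40708870 (plus strand, Slc25a31), chr1:166238745-166238994 (minus strand, Mael), chr10:88459337-88459586 (plus strand, Sycp3), chr3:95559427-95559676 (plus strand, Hormad1), chr15:85131958-85132207 (minus strand, Smc1b) and chrX:140813434-140813683 (minus strand, Tex13), in the order of the lines.
Ddx4: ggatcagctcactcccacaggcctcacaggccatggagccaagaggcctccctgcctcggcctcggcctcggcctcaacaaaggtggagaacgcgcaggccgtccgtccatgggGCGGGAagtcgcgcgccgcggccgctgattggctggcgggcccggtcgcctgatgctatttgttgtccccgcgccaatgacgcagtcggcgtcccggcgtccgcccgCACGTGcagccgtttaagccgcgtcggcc
Slc25a31: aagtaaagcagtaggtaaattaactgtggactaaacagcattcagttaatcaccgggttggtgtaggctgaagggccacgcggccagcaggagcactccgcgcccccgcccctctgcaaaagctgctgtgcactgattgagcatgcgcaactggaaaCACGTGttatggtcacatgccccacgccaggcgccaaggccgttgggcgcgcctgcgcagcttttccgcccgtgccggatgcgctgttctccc
Mael: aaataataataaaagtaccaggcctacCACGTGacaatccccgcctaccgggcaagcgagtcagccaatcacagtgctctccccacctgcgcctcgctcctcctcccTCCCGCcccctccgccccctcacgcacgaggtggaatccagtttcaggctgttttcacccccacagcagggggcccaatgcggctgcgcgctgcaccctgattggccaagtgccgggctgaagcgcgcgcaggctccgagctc
Sycp3: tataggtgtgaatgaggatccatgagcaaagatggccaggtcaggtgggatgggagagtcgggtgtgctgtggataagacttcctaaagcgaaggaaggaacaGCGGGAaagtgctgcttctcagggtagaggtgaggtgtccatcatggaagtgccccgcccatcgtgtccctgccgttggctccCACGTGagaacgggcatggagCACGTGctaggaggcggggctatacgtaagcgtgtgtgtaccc
Hormad1: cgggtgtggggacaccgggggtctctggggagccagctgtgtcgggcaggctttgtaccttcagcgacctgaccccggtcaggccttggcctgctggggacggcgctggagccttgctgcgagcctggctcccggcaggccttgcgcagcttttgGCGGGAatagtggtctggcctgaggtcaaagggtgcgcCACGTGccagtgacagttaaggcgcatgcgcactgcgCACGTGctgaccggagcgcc
Smc1b: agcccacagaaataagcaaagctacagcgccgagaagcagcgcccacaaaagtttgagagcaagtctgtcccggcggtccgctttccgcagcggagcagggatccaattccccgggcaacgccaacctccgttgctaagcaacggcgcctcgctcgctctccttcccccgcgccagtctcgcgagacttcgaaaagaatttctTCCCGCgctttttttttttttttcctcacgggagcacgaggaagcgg
Tex13: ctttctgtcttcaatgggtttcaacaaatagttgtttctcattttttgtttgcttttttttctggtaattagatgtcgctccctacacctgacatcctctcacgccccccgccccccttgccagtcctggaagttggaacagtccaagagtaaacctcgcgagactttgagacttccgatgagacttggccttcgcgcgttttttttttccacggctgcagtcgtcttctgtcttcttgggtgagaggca

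Genes with CACGTG did not move one way. Of the 13 germline genes with it, 5 were higher, 6 were lower and 2 did not pass the test in dKO against WT cells. In the same group 8 were higher, 3 were lower and 2 did not pass in dCD against WT cells. Of the 15 without it, 4 were higher and 8 lower in dKO cells. Among the same genes 7 were higher, 4 were lower and 1 did not pass in dCD cells. The other 3 were not tested. For scale, calls over the whole filtered set of 16179 genes, whatever their promoter, came to 43.4% up and 28.4% down for dKO against WT. For dCD against WT the same set gave 28.9% up and 29.5% down. The counts by E-box are a description, and no test was made between genes with and without the letters.

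**Figure D3:**
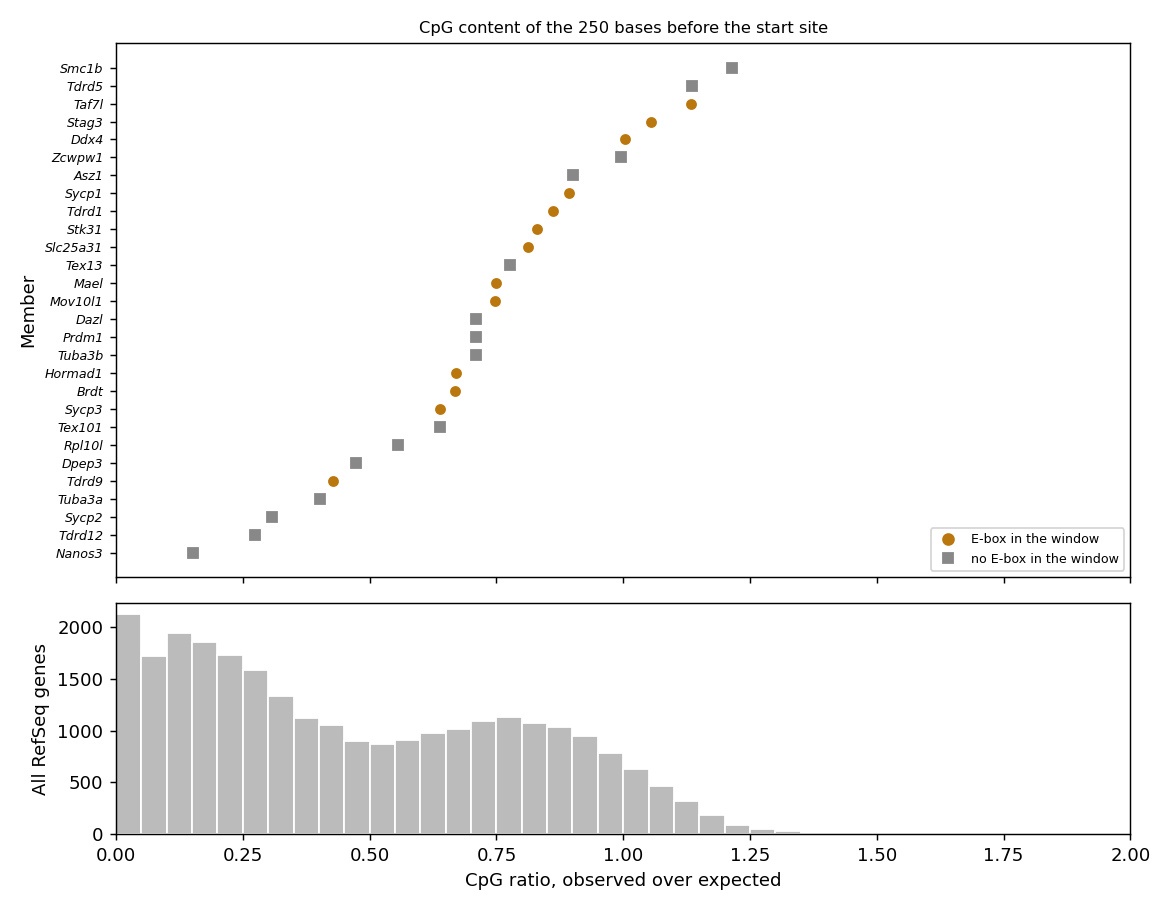
Observed over expected CpG ratio in the 250 bases before the start site, for the 28 germline and meiosis genes with a RefSeq promoter and, as a histogram below, for all 27025 genes, with round points for windows with the E-box and squares for those without. The medians are 0.729 and 0.403.

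Among the 4 germ cell identity genes, 2 were higher and 2 lower than in WT cells in both mutant lines. These shares of 50% stand beside 43.4% higher and 28.4% lower of all tested genes in dKO cells. In dCD cells the shares of all were 28.9% and 29.5%. Shares of groups by role are coarse, since the groups are small. Dazl, an RNA-binding protein that licenses germ cells for their later programme, stood at 3.82, 4.09 and 4.62 TPM in dKO cells, at 27.2, 26.7 and 25.9 TPM in dCD cells and at 10.4, 10.0 and 12.2 TPM in WT cells. Every dKO library was below and every dCD library was above all WT libraries. The log2 fold change was -1.20 ± 0.08 (SE, adjusted p = 2.12e-07) for dKO and 1.22 (adjusted p = 4.26e-07) for dCD. Dazl in dKO cells differed from that in dCD cells by -2.42 (adjusted p = 1.34e-09). Prdm1, the transcriptional repressor that specifies primordial germ cells, stood at 3.39, 3.44 and 3.21 TPM in dKO cells, at 6.46, 5.83 and 5.58 TPM in dCD cells and at 9.69, 8.09 and 10.2 TPM in WT cells. It was lowest in dKO and intermediate in dCD cells with no overlap between lines with a log2 fold change of -1.25 ± 0.08 for dKO (adjusted p = 3.39e-07) and -0.57 for dCD (adjusted p = 0.000228).

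Ddx4, the germ cell RNA helicase also called mouse vasa homologue, stood at 12.8, 13.8 and 13.3 TPM in dKO cells, at 12.1, 12.4 and 11.5 TPM in dCD cells and at 4.24, 4.16 and 4.69 TPM in WT cells. Both mutant lines were well above WT cells, by 1.42 ± 0.06 for dKO (adjusted p = 4.94e-09) and 1.28 for dCD (adjusted p = 2.85e-08). Between dKO and dCD cells the difference of 0.14 passed narrowly (adjusted p = 0.0492) and failed under most alternatives, among them median-ratio scaling (0.04, adjusted p = 0.548), the replicate number as a block (adjusted p = 0.0759) and leaving out any of the 3 dCD libraries (adjusted p = 0.051 to 0.16). Nanos3, an RNA-binding protein needed for the survival of primordial germ cells, stood at 6.57, 7.66 and 6.98 TPM in dKO cells, at 1.60, 1.68 and 1.85 TPM in dCD cells and at 2.36, 3.86 and 3.74 TPM in WT cells. It was higher in dKO cells by 0.92 ± 0.13 (adjusted p = 0.000104) and lower in dCD cells with a log2 fold change of -0.66 (adjusted p = 0.00161), and no library of 1 line overlapped another. Each of the 4 identity genes thus had its own order of the lines.

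In the piRNA pathway, 7 of 9 genes were tested, of which 3 were higher and 3 lower in dKO cells, and 4 higher and 2 lower in dCD cells. The shares were 42.9% each in dKO cells, beside 43.4% and 28.4% of all tested genes. In dCD cells they were 57.1% and 28.6%, beside 28.9% and 29.5%. Piwil2, also called Mili, the Piwi protein that makes primary piRNAs and cuts transposon transcripts, stood at 7.86, 8.38 and 8.84 TPM in dKO cells, at 4.97, 5.11 and 4.50 TPM in dCD cells and at 3.01, 3.05 and 3.20 TPM in WT cells. The 3 lines did not overlap, with dKO above dCD and dCD above WT. The log2 fold change was 1.19 ± 0.07 for dKO (adjusted p = 6.92e-08) and 0.52 for dCD (adjusted p = 7.53e-05). Tdrd1, a Tudor protein that binds Piwi proteins, had the same order at lower levels, with 2.42, 2.51 and 2.50 TPM in dKO cells, 1.07, 0.986 and 1.04 TPM in dCD cells and 0.212, 0.328 and 0.231 TPM in WT cells. The WT values rest on 9, 22 and 8 reads, and the differences were 1.47 for dKO (adjusted p = 1.73e-07) and 0.69 for dCD (adjusted p = 9.75e-05). Mov10l1, the RNA helicase that feeds piRNA precursors into processing, stood at 9.05, 8.48 and 9.55 TPM in dKO cells, at 10.0, 9.65 and 9.97 TPM in dCD cells and at 5.35, 5.87 and 6.53 TPM in WT cells. It was higher in both mutant lines, by 0.54 for dKO (adjusted p = 4.56e-05) and 0.66 for dCD (adjusted p = 1.83e-05). For dKO against dCD cells Mov10l1 gave -0.12 (95% interval -0.27 to 0.04, adjusted p = 0.153). That difference passed after median-ratio scaling (adjusted p = 0.0181) and with voom (adjusted p = 0.0306).

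Other piRNA genes were lower. Tdrd12, a Tudor protein needed for secondary piRNAs, stood at 5.60, 5.24 and 5.20 TPM in dKO cells, at 18.1, 18.6 and 16.6 TPM in dCD cells and at 20.6, 20.5 and 21.8 TPM in WT cells. The dKO libraries stood far below both other lines with a log2 fold change of -1.79 ± 0.05 against WT (adjusted p = 6.07e-10) and -1.56 against dCD (adjusted p = 2.01e-09). The level in dCD cells differed from WT by -0.23 (adjusted p = 0.00381). Mael, a component of the germ cell granules where piRNAs are made, stood at 6.34, 7.06 and 6.71 TPM in dKO cells, at 28.1, 25.4 and 26.1 TPM in dCD cells and at 18.3, 19.0 and 21.9 TPM in WT cells. Its change was -1.43 ± 0.07 in dKO cells (adjusted p = 2.3e-08) and 0.41 in dCD cells (adjusted p = 0.000509), so that the mutant lines lay on opposite sides of WT. Stk31, a Tudor domain protein with a kinase domain, stood at 9.82, 9.53 and 10.9 TPM in dKO cells, at 11.2, 11.0 and 10.3 TPM in dCD cells and at 16.4, 16.9 and 17.7 TPM in WT cells. It was lower in both lines with a log2 fold change of -0.70 for dKO (adjusted p = 1.35e-06) and -0.61 for dCD (adjusted p = 7.95e-06). For dKO against dCD cells Stk31 gave -0.09 (95% interval -0.22 to 0.03, adjusted p = 0.17), and this passed after median-ratio scaling (adjusted p = 0.0113) and without dKO replicate 3 (adjusted p = 0.0416). Tdrd9, a helicase with a Tudor domain, lay between 1.28 and 1.80 TPM in all libraries and passed in neither comparison with WT. The differences were -0.16 for dKO (95% interval -0.36 to 0.04, adjusted p = 0.138) and -0.12 for dCD (95% interval -0.31 to 0.08, adjusted p = 0.294). After median-ratio scaling the dKO difference of Tdrd9 passed (adjusted p = 0.047).

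Of the 7 tested genes of the meiotic chromosome axis, synaptonemal complex and cohesin, 6 were lower and 1 was higher in dKO than in WT cells, with a median log2 fold change of -1.00. In dCD cells 3 of these genes were lower, 2 were higher and 2 did not pass, with a median of -0.26. The shares lower and higher were 85.7% and 14.3% in dKO cells, beside 28.4% and 43.4% of all tested genes. For dCD cells they were 42.9% and 28.6%, beside 29.5% and 28.9%. Sycp2, also of this group but below the filter, lay at 0.949 to 1.17 TPM in dKO cells and 0.108 to 0.263 TPM in WT cells. It thus lay on the side of the 1 higher gene in dKO cells. Smc1b, the meiotic cohesin subunit, stood at 0.896, 0.626 and 0.685 TPM in dKO cells, at 4.54, 4.19 and 3.94 TPM in dCD cells and at 11.6, 11.3 and 12.2 TPM in WT cells. The dKO values rest on 28, 25 and 24 reads, against 365, 565 and 313 reads in WT cells. Its change of -2.88 ± 0.08 in dKO cells (adjusted p = 4.07e-10) was the largest decrease among the 27 genes, and dCD cells lay between the other lines at -1.28 (adjusted p = 3.57e-07). Stag3, the cohesin subunit that pairs with it in meiosis, stood at 20.5, 22.0 and 21.8 TPM in dKO cells, at 32.0, 29.5 and 31.5 TPM in dCD cells and at 49.9, 48.6 and 50.0 TPM in WT cells. It had the same order with a log2 fold change of -1.17 ± 0.04 for dKO (adjusted p = 1.68e-09) and -0.66 for dCD (adjusted p = 2.83e-07). Hormad1, a HORMA domain protein of the unsynapsed axis, stood at 3.59, 4.44 and 4.20 TPM in dKO cells, at 11.1, 12.5 and 10.6 TPM in dCD cells and at 13.5, 13.8 and 17.9 TPM in WT cells. The dKO libraries were again the lowest with a log2 fold change of -1.66 ± 0.11 (adjusted p = 2.42e-07). The dCD difference of -0.37 (adjusted p = 0.0145) failed without dCD replicate 3 (adjusted p = 0.0537).

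Sycp3, a lateral element protein of the synaptonemal complex, differed in direction between the mutant lines, with 5.21, 4.96 and 4.47 TPM in dKO cells, 25.2, 26.4 and 22.8 TPM in dCD cells and 6.61, 6.03 and 8.20 TPM in WT cells. Its log2 fold change was -0.43 ± 0.10 in dKO cells (adjusted p = 0.00259) and 1.71 in dCD cells (adjusted p = 2.07e-07), with no overlap between lines. On GRCm38, Sycp3 overlaps Chpt1, which stood at 6.98 to 7.29 TPM in dKO cells, 11.8 to 13.0 TPM in dCD cells and 7.01 to 7.55 TPM in WT cells. Since no strand setting is stated, reads of genes that overlap cannot be told apart. Smc1b overlaps Fam118a, at 25.1 to 26.0 TPM in dKO cells, 27.6 to 29.7 TPM in dCD cells and 30.0 to 30.4 TPM in WT cells. Stag3 overlaps Gpc2, at 3.02 to 3.48 TPM in dKO cells, 2.78 to 2.87 TPM in dCD cells and 2.60 to 2.98 TPM in WT cells. Stag3 also overlaps Gal3st4, Zcwpw1 overlaps Pilra and Tdrd9 overlaps Rd3l, all at 0.153 TPM or less in every library. Sycp1, the transverse filament of the complex, stood at 5.12, 5.97 and 6.58 TPM in dKO cells, at 8.45, 7.81 and 6.43 TPM in dCD cells and at 8.67, 8.71 and 10.4 TPM in WT cells. It was lower in dKO cells with a log2 fold change of -0.58 ± 0.11 (adjusted p = 0.000768), and its dCD libraries, all below the lowest WT value, gave -0.26 (adjusted p = 0.0615). That dCD difference passed with voom (adjusted p = 0.00395), at a minimum of 5 TPM (adjusted p = 0.0424), without dCD replicate 1 (adjusted p = 0.035) and without dKO replicate 1 (adjusted p = 0.048). The difference between dKO and dCD cells of -0.31 (adjusted p = 0.0265) rested on libraries that overlap. It failed without either of replicates 1 and 2 of each of these lines (adjusted p = 0.050278 to 0.101). Zcwpw1, a reader of the histone marks that Prdm9 places at recombination sites, stood at 5.08, 5.47 and 5.80 TPM in dKO cells, at 11.8, 11.6 and 11.3 TPM in dCD cells and at 11.5, 11.0 and 13.3 TPM in WT cells. It was lower in dKO cells with a log2 fold change of -1.00 ± 0.07 (adjusted p = 4.49e-07), and for dCD cells the difference was -0.04 (95% interval -0.20 to 0.12, adjusted p = 0.68).

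Tex11, an X-linked gene needed for crossovers, was the 1 gene of the 7 tested in that group that was higher in dKO cells. It stood at 5.45, 7.14 and 6.17 TPM in dKO cells, at 3.33, 3.02 and 3.06 TPM in dCD cells and at 1.10, 1.41 and 0.997 TPM in WT cells. The lines did not overlap, and the change was 1.74 ± 0.10 for dKO (adjusted p = 1.26e-07) and 0.94 for dCD (adjusted p = 2.79e-05). The 2 germ cell transcription and chromatin genes were both higher in dCD than in dKO cells, as were 27.04% of all tested genes. Taf7l, a germ cell relative of a general transcription factor subunit and also X-linked, stood at 2.07, 2.43 and 2.92 TPM in dKO cells, at 4.76, 5.47 and 4.49 TPM in dCD cells and at 1.03, 0.867 and 0.770 TPM in WT cells. Both lines were above WT, by 0.87 for dKO (adjusted p = 4.11e-05) and 1.64 for dCD (adjusted p = 6.86e-07). Brdt, the testis member of the BET family that binds acetylated histones, stood at 0.758, 0.870 and 0.608 TPM in dKO cells, at 1.46, 1.43 and 1.13 TPM in dCD cells and at 0.653, 0.460 and 0.399 TPM in WT cells. It was higher in dCD cells by 0.64 ± 0.12 (adjusted p = 0.00102), while dKO and WT libraries overlapped and differed by 0.22 (95% interval -0.05 to 0.48, adjusted p = 0.13).

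Of the other testis genes, all 7 were higher in dCD than in WT cells, beside 28.9% of all tested genes. In dKO cells 4 were higher and 3 lower, or 57.1% and 42.9%, beside 43.4% and 28.4% of all. Of these 7 genes, Tex101 and Tex13 passed the filter only through the mutant lines, where they were higher. Tuba3a and Tuba3b are near-identical copies, and the dCD call of Tuba3a failed without dCD replicate 3 (adjusted p = 0.0508). Tex13, an X-linked gene named for its expression in testis, stood at 41.3, 40.6 and 43.1 TPM in dKO cells, at 2.24, 1.99 and 2.50 TPM in dCD cells and at 0.413, 0.753 and 0.449 TPM in WT cells. The mean dKO level was 77.4 times the mean WT level, which rests on 9, 26 and 8 reads against 895, 1125 and 1048 reads in dKO cells. The log2 fold change was 4.80 ± 0.09 for dKO (adjusted p = 3.46e-11), the largest increase of the 27 genes, and 1.08 for dCD (adjusted p = 4.13e-06). Slc25a31, the ADP/ATP carrier of male germ cell mitochondria, stood at 5.52, 5.51 and 5.36 TPM in dKO cells, at 3.42, 3.15 and 3.13 TPM in dCD cells and at 0.845, 0.876 and 1.25 TPM in WT cells. It had the same order of lines, by 1.70 ± 0.09 for dKO (adjusted p = 4.63e-08) and 1.09 for dCD (adjusted p = 3.01e-06). Tex101, a surface glycoprotein of germ cells, lay at 0.857 to 1.34 TPM in dKO cells, 0.810 to 1.28 TPM in dCD cells and 0.155 to 0.569 TPM in WT cells, which is 2 to 6 reads in WT cells. It was higher by 0.66 in both mutant lines (adjusted p = 0.00309 for dKO and 0.00415 for dCD).

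Rpl10l, a retrogene of the ribosomal protein gene Rpl10 that stands in for it in male meiosis, had the highest level of the 30 genes, with 96.6, 91.5 and 92.8 TPM in dKO cells, 527, 547 and 538 TPM in dCD cells and 177, 189 and 188 TPM in WT cells. It was lower in dKO cells with a log2 fold change of -0.97 ± 0.03 (adjusted p = 1.02e-09) and higher in dCD cells by 1.54 (adjusted p = 1.31e-10). Rpl10 itself, whose reads may be shared with the copy, stood at 801 to 831 TPM in dKO cells, 801 to 835 TPM in dCD cells and 769 to 803 TPM in WT cells. Dpep3, a testis dipeptidase, moved the same way, with 1.08, 1.44 and 0.822 TPM in dKO cells, 5.21, 5.34 and 4.91 TPM in dCD cells and 2.75, 2.80 and 4.11 TPM in WT cells. The difference was -0.99 ± 0.14 for dKO (adjusted p = 8.62e-05) and 0.56 for dCD (adjusted p = 0.00584).

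Tuba3a and Tuba3b, α-tubulin genes of the testis, are near-identical copies, and how reads were split between them is uncertain. Tuba3a stood at 31.5, 29.6 and 27.8 TPM in dKO cells, at 189, 186 and 195 TPM in dCD cells and at 172, 176 and 168 TPM in WT cells. Tuba3b went the other way, with 27.9, 26.2 and 26.5 TPM in dKO cells, 7.58, 9.77 and 8.07 TPM in dCD cells and 3.84, 3.43 and 4.87 TPM in WT cells. In dKO cells Tuba3a changed by -2.50 ± 0.04 (adjusted p = 1.39e-11) and Tuba3b by 2.48 ± 0.11 (adjusted p = 1.09e-08). The sum of both was 54.3 to 59.4 TPM in dKO cells, 195.6 to 203.3 TPM in dCD cells and 172.8 to 179.5 TPM in WT cells, so that it was lower in every dKO library. Tuba3b made up 46.9% to 48.9% of the sum in dKO cells, 3.85% to 5.00% in dCD cells and 1.91% to 2.82% in WT cells. In dCD cells Tuba3b was higher by 0.91 (adjusted p = 4.27e-05), and the difference of Tuba3a, 0.14 (adjusted p = 0.0137), failed without dCD replicate 3 (adjusted p = 0.0508).

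**Figure D4:**
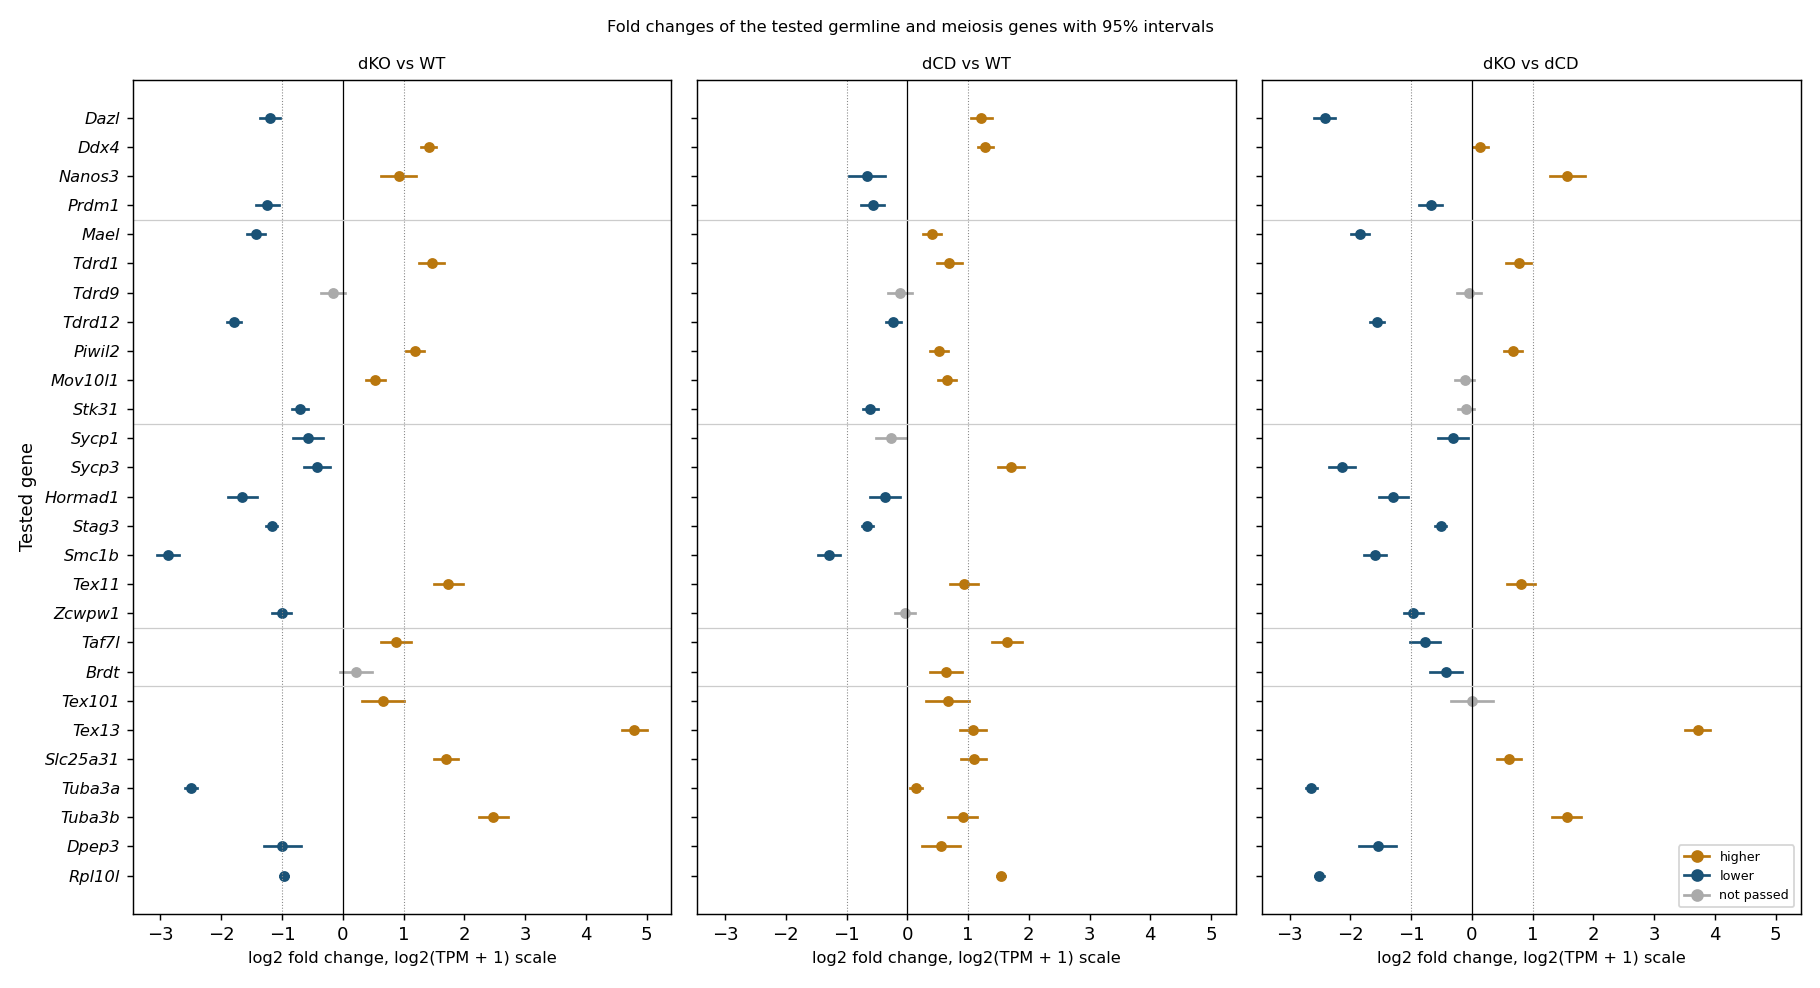
Log2 fold change of each of the 27 tested genes, by role, for dKO against WT, dCD against WT and dKO against dCD, with 95% intervals from limma, dotted lines at 2-fold and colours for higher, lower and not passed. Smc1b lies at -2.88 and Tex13 at 4.80 in dKO against WT, and Dazl, Nanos3, Mael, Sycp3, Tuba3a, Dpep3 and Rpl10l lie on opposite sides of 0 in the comparisons of dKO and dCD with WT.

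The lines were also compared directly. The largest negative differences of dKO from dCD cells were those of Tuba3a (-2.64, adjusted p = 1.27e-11), Rpl10l (-2.51, adjusted p = 2.38e-12), Dazl (-2.42), Sycp3 (-2.13, adjusted p = 2.03e-08) and Mael (-1.84, adjusted p = 4.5e-09). The 3 genes at least 2-fold higher in dKO than in dCD cells were Tex13 (3.72, adjusted p = 2.41e-10), Nanos3 (1.57, adjusted p = 2.02e-06) and Tuba3b (1.56, adjusted p = 4.58e-07). Smaller positive differences passed for Tex11, Tdrd1, Piwil2 and Slc25a31, between 0.61 and 0.80, and that of Ddx4 is given above. Tdrd9, Mov10l1, Stk31 and Tex101 did not pass, and the interval for Tex101 of -0.35 to 0.34 was the widest of these.

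The genes below the filter are given by level. Sycp2, a lateral element protein that binds Sycp3, lay at 0.949 to 1.17 TPM in dKO cells, 0.467 to 0.618 TPM in dCD cells and 0.108 to 0.263 TPM in WT cells, on 54 to 56 reads per dKO library and 5 to 12 per WT library. Its 3 lines did not overlap. Asz1, a mitochondrial scaffold for the piRNA machinery, lay at 0.411 to 0.536 TPM in dKO cells, 0.146 to 0.261 TPM in dCD cells and 0.0287 to 0.227 TPM in WT cells, on 1 to 15 reads per library. Tdrd5, another Tudor protein, lay at 0.423 to 0.598 TPM in dKO cells, 0.797 to 1.22 TPM in dCD cells and 0.362 to 0.648 TPM in WT cells. Asz1 was highest in the dKO libraries and Tdrd5 in the dCD libraries.

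Other genes of the germline were read from further lists. Of 19 tested genes of meiosis out of 27 listed, 9 were higher and 7 lower in dKO than in WT cells, or 47.4% and 36.8%, beside 43.4% and 28.4% of all tested genes, with a median of 0.15. Of the same genes 6 were higher and 8 lower in dCD cells, or 31.6% and 42.1%, beside 28.9% and 29.5% of all, with a median of -0.05. Changes from WT of at least 2-fold were found for 5 in dKO cells (26.3%) and 3 in dCD cells (15.8%). These shares stand beside 13.9% and 6.94% of all tested genes. In dKO against dCD cells 1 gene (5.26%) differed at least 2-fold, beside 10.96% of all. Stra8, which starts meiosis under retinoic acid, stood at 0.287, 0.280 and 0.383 TPM in dKO cells, at 32.9, 32.9 and 31.3 TPM in dCD cells and at 18.4, 17.6 and 15.9 TPM in WT cells. It was thus near 0 in dKO cells alone with a log2 fold change of -3.79 (adjusted p = 1.36e-11), and higher in dCD cells, by 0.87 (adjusted p = 1.17e-06). Sohlh2, a transcription factor of early germ cell differentiation, was 1.96 higher in dKO cells (adjusted p = 3.39e-11) and 1.63 higher in dCD cells (adjusted p = 3.56e-10). Syce1, of the synaptonemal complex, and Rec8, the meiotic cohesin kleisin, were higher in both lines, by 1.34 and 0.99 in dKO cells and 0.77 and 0.57 in dCD cells. The genes named so far from this list were all higher in dCD cells, although 8 others were lower there. Among those 8, Dmc1 (-1.47 in dKO cells and -1.26 in dCD cells) and Tex14 (-1.22 and -1.24) were lower in both lines.

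Of 13 tested piRNA genes out of 16 further ones listed, 4 were higher and 5 lower in dKO cells, together 69.2%, beside 71.8% of all tested genes. In dCD cells 7 were higher and 5 lower, together 92.3%, beside 58.4% of all. By direction the shares higher and lower were 30.8% and 38.5% in dKO cells, beside 43.4% and 28.4% of all. For dCD cells they were 53.8% and 38.5%, beside 28.9% and 29.5%. At a minimum of 5 TPM these piRNA counts were 2 and 3 in dKO cells and 3 and 3 in dCD cells. With the main filter, changes from WT of at least 2-fold were found for 3 in dKO cells (23.1%) and 1 in dCD cells (7.69%). These shares stand beside 13.9% and 6.94% of all tested genes. In dKO against dCD cells 1 gene (7.69%) differed at least 2-fold, beside 10.96% of all. Tex19.1, which restrains transposons in germ cells, stood at 161 to 173 TPM in dKO cells, 171 to 178 TPM in dCD cells and 65.0 to 74.8 TPM in WT cells. Ddx25 and Tdrkh were higher in both lines, by 0.95 and 1.09 in dKO cells and 0.59 and 0.74 in dCD cells. Gtsf1, a partner of Piwi proteins, was lower in both lines with a log2 fold change of -1.30 in dKO cells and -0.76 in dCD cells. Of 7 tested genes of early germ cells, 2 were higher and 4 lower in each line, together 85.7%, beside the same 71.8% and 58.4%. By direction these were 28.6% higher and 57.1% lower, beside 43.4% and 28.4% of all tested genes in dKO cells. In dCD cells the shares of all were 28.9% and 29.5%. At least 2-fold changes from WT were found for 1 of these 7 genes in dKO cells (14.3%) and 0 in dCD cells, beside 13.9% and 6.94% of all tested genes. That gene was Dppa3, at 0.340 to 1.45 TPM in dKO cells, 3.59 to 4.96 TPM in dCD cells and 8.55 to 9.36 TPM in WT cells. Its dKO values rest on 3 to 10 reads. The log2 fold change of Dppa3 was -2.46 in dKO cells (adjusted p = 8.27e-07) and -0.97 in dCD cells (adjusted p = 0.00134). Tfap2c, a transcription factor of primordial germ cells, was lower in dKO cells (-0.84) and higher in dCD cells (0.22). Ifitm3 was higher in dKO cells (0.56) and lower in dCD cells (-0.17), and Kit was lower in both (-0.87 and -0.50). Dnd1, an RNA-binding partner of Nanos proteins, was higher in dKO cells (0.72), with -0.03 in dCD cells (adjusted p = 0.617). The oocyte genes Ooep and Zp3, the only 2 of 8 listed that were tested, were both lower in dKO cells (-2.15 and -2.56) and in dCD cells (-0.78 and -0.83).

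Genes of late sperm formation were close to absent. Of 13 listed, 12 were below 1 TPM in all 9 libraries, among them the protamine genes Prm1 and Prm2, and Tnp1 and Akap4 were listed at 0 in all of them. Ldhc, the lactate dehydrogenase of germ cells, was the 1 tested gene, lower with a log2 fold change of -1.25 in dKO cells (adjusted p = 3.18e-07), with 0.09 in dCD cells (adjusted p = 0.377). The libraries thus hold RNA of germ cell identity, piRNA and meiosis genes without that of most genes of late sperm formation. The name germline genes says where these genes are known to act, not that germ cells were present.

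All 18 listed genes of factors known to silence germline genes were tested, and 6 were higher and 10 lower in dKO cells, or 33.3% and 55.6%, beside 43.4% and 28.4% of all tested genes, with a median of -0.23. In dCD cells 7 were higher and 6 lower, or 38.9% and 33.3%, beside 28.9% and 29.5%, with a median of 0.05. Dnmt3b, a de novo DNA methyltransferase, stood at 39.2, 39.9 and 39.7 TPM in dKO cells, at 104, 107 and 103 TPM in dCD cells and at 116, 111 and 103 TPM in WT cells. It was lower in dKO cells with a log2 fold change of -1.45 (adjusted p = 2.75e-10), while the dCD and WT libraries overlapped (-0.07, adjusted p = 0.135, and 0.011 without WT replicate 3). E2f6, the repressor of the complex named above, was higher in both lines, by 1.35 in dKO cells (adjusted p = 4.99e-10) and 0.74 in dCD cells (adjusted p = 9.78e-08). The other 3 genes named with it above did not all move with it. Max was higher in both lines (0.19 in dKO cells and 0.36 in dCD cells), while Mga (-0.64 in dKO cells and -0.55 in dCD cells) and L3mbtl2 (-0.50 in dKO cells and -0.45 in dCD cells) were lower in both. Elsewhere in the list, Yaf2 was higher in both lines (1.27 in dKO cells and 0.87 in dCD cells). Pcgf6 was lower in dKO cells (-0.45), with 0.10 in dCD cells (adjusted p = 0.0508). Max, Mga, L3mbtl2, Yaf2 and Pcgf6 were named after their values were seen. Uhrf1, which guides maintenance of DNA methylation, was lower in both with a log2 fold change of -0.58 in dKO cells and -0.69 in dCD cells, and Tfdp1, a partner of E2F proteins, was higher, by 0.74 in dKO cells and 0.08 in dCD cells, where the call failed without WT replicate 2 (adjusted p = 0.052). RNA levels of these factors do not measure their activity.

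Marker genes of other cells and states were summed per library. Counts of calls among them stand beside 43.4% of all tested genes higher and 28.4% lower in dKO than in WT cells. In dCD cells the shares of all were 28.9% and 29.5%. The marker lists are small, so that shares within them are coarse. The summed level of 7 embryonic stem cell markers was 5813 to 5867 TPM in dKO cells, 5194 to 5326 TPM in dCD cells and 7162 to 7232 TPM in WT cells, with 5 of 7 lower in dKO and 6 of 7 lower in dCD cells. Klf4, 1 of the 7, was higher in dKO cells (0.76, adjusted p = 4.26e-09), and none was higher in dCD cells. The rare two-cell-like state of such cultures was followed by 6 genes, among them Zscan4c and Zscan4d, which summed to 12.0 to 12.6 TPM in dKO cells, 64.0 to 65.6 TPM in dCD cells and 4.02 to 5.19 TPM in WT cells. Of these, 4 were higher in dKO cells and all 6 were higher in dCD cells, and none was lower in either. The 7 fibroblast markers summed to 13.1 to 14.3 TPM in dKO cells, 19.3 to 20.8 TPM in dCD cells and 2.88 to 3.07 TPM in WT cells, with 3 of 7 below 1 TPM in all libraries and Lum at 0 in all dCD libraries. Of the 4 tested, 3 were higher and Thy1 was lower in dKO cells (-1.18), and all 4 were higher in dCD cells. Col1a1 alone gave 10.1 to 10.4 TPM of that sum in dKO cells, 7.53 to 7.64 TPM in dCD cells and 0.383 to 0.548 TPM in WT cells. The sums of 4 endoderm markers were 12.9 to 13.7 TPM in dKO cells, 12.2 to 14.5 TPM in dCD cells and 8.43 to 10.1 TPM in WT cells, with 1 of 4 higher in dKO cells, 2 of 4 higher in dCD cells and none lower. Those of 5 markers of somatic gonad cells were 17.3 to 23.9 TPM in dKO cells, 15.2 to 16.5 TPM in dCD cells and 14.8 to 16.1 TPM in WT cells, where the dCD and WT sums overlap. Of the 4 tested, 2 were higher in dKO cells, and 2 were higher and 1 lower in dCD cells. The part of these cell states in the levels of the germline genes was not tested.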

How the data were processed

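RNA of 3 dKO, 3 dCD and 3 WT libraries was measured, and samples were grouped by their titles. The authors deposited 1 TPM value per gene and library with a gene length. The submitters' processing notes name HISAT2, featureCounts and DESeq2, without versions or roles, and build mm9. Strand setting, annotation and how multi-mapped reads were counted: not given in the sources used here. TPM times length gave whole reads for 100% of values (within 0.01), which gave depths of 21090624 to 56249770 reads.

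Genes with at least 1 TPM in at least 3 libraries were fitted as log2(TPM + 1) with limma 3.58.1 (R 4.3.3) with a trend in the prior variance. All 9 libraries entered 1 fit with 3 contrasts, and p-values were adjusted by Benjamini-Hochberg over 16179 genes, with a threshold of 0.05. The script was tested on simulated data. Replicates of a line differed by more than counting noise (chi-square per degree of freedom 1.58 to 4.14), so none was a copy. Levels of replicates correlated at 0.994 to 0.996 and levels of different lines at 0.940 to 0.968.

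The genes and all lists were chosen with earlier results of these data known, so no p was adjusted over a list alone and no list was tested as a set. Every listed gene is accounted for. From each further list at most 4 called genes were picked by the smallest p over both contrasts with WT. Both directions had to be present over the 2 contrasts together, not within each. Mga, Max, L3mbtl2, Yaf2, Pcgf6, Dppa3, Thy1, Col1a1, Klf4, Dmc1 and Tex14 were named after their values were seen. Alternatives were a pseudocount of 0.1, no filter, a minimum of 5 TPM, median-ratio scaling, voom on the recovered reads, a fit of only the 2 lines compared, a replicate block, and leaving out each library. Symbols matched the RefSeq table for 29 genes, and for Tex13 by an older symbol. RefSeq coordinates are on GRCm38.p6 and were used for promoters and for which genes overlap, never joined with mm9 positions.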

Additional observations from a re-analysis of the deposited data

How the results depend on the processing

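No alternative moved a count of the 30 genes past the threshold by over 1.5 times: over all of them dKO against WT gave 8 to 13 higher and 13 to 15 lower, dCD against WT 12 to 19 and 6 to 8, and dKO against dCD 7 to 9 and 12 to 17. Leaving out 1 library gave 11 and 14, then 16 to 17 and 6 to 8, and 7 to 8 and 14 to 16. Counts at 2-fold depended on the scale: genes higher in dCD than in WT cells numbered 12 in place of 7 with a pseudocount of 0.1 or voom, and those lower among all genes 645 and 718 in place of 376. The median of the germline genes in dKO against WT was -0.10 without a filter and -0.70 at a minimum of 5 TPM, in place of -0.43.

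Counts of the further lists did move at a minimum of 5 TPM, where fewer genes were tested: in dKO against WT the piRNA genes higher and lower were 2 and 3 in place of 4 and 5, in dCD against WT 3 and 3 in place of 7 and 5, and the meiosis genes lower in dCD were 5 in place of 8. Without a filter 1 oocyte and 2 sperm formation genes were higher in dKO against WT, in place of 0.

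Sign changes were confined to differences near 0 that had not passed, when 1 library was left out. The values ranged from -0.10 to 0.075 for Tex101 and from -0.0723 to 0.00426 for Tdrd9 in dKO against dCD. In dCD against WT they ranged from -0.13 to 0.0232 for Kmt2d, from -0.0886 to 0.0377 for Zcwpw1 and from -0.0663 to 0.0134 for Dnd1. The causes were not tested. Depth limits Asz1, Sycp2, Tdrd1, Taf7l, Brdt, Tex101, Tex13 and Slc25a31, which rest on 1 to 29 reads in each WT library.

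Replicate numbers did not pair the libraries: deviations of same-numbered libraries correlated at -0.049 to 0.042. With the replicate block 11 and 14, 17 and 7, and 7 and 15 genes were higher and lower in the 3 contrasts, and 80 of 81 values kept their call.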
